A study of Mus musculus with 4 samples.

Results

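10 genes tied to myeloid suppression and checkpoint signalling were followed, of 32285 genes in the deposited matrices: the arginine enzymes *Arg1* and *Arg2*, the inducible nitric oxide synthase *Nos2*, the oxidase subunit *Cybb*, the prostaglandin synthase *Ptgs2*, the cytokines *Il10* and *Tgfb1*, the receptor subunit *Il4ra*, the surface receptor *Trem1*, and the checkpoint ligand *Cd274*. They are a list of names, and no measured level enters the rule, but the list was chosen with earlier results of these data known. Shares over all genes that stand beside counts are therefore a description and not a test. Single-cell RNA-sequencing (scRNA-seq) libraries were available for 4 groups of C57BL/6J mice aged 8 to 16 weeks, which were female according to the methods: the bone marrow of control (CBM) and of tumor-bearing mice (TBM), and the spleen of the same 2 kinds of mice (CS and TS). Tumor-bearing mice carried PyMT-B6, a line derived from MMTV-PyMT mammary tumors and placed under the skin, with tissues taken on day 21 in the methods. Control mice had no tumor. Figure legends for other experiments give controls injected with PBS, which is not stated for these libraries. Spleens were minced and digested with enzymes, while marrow was spun out of the bones and then digested, so tissue and preparation went together. Lineage-positive cells were removed with magnetic beads, the rest was sorted into gates on CD45, c-Kit, Sca-1, CD31, and CD51, and the sorted fractions were mixed in equal parts, so every share is a share of that mixture and mature lineage-positive myeloid cells were largely removed before sequencing. Each group had 1 library, the number of mice behind it is not given in the sources used here, and no difference between libraries could be tested against the spread between animals. All intervals are exact 95% intervals that cover counting error only.

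Myeloid-derived suppressor cells are immature neutrophils and monocytes that accumulate in tumor-bearing hosts and restrain T cells. They are known to do so by using up arginine through arginases, by making nitric oxide and superoxide, by releasing prostaglandin E2, interleukin-10 (IL-10) and transforming growth factor beta, and by showing the ligand PD-L1, which *Cd274* encodes. *Il4ra* and *Trem1* encode receptors found on such cells, for IL-4 and IL-13 in the first case and as an amplifier of inflammatory signals in the second.

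Barcodes with at least 1000 genes and at most 10% mitochondrial UMIs (unique molecular identifiers, 1 for each captured RNA molecule) were kept, 3497 in CBM and 4340 in TBM, 3236 in CS and 5188 in TS, with 13738 to 26808 UMIs in the median cell of a library. The cells fell into 40 clusters, of which 29 could be named from marker genes and made up 12 classes holding 80.4% of the cells. None of the 10 genes took part in the clustering. A level is given in CPM, the UMIs of a gene per 1000000 UMIs of all cells of that class in that library, beside the level in free RNA, the barcodes with at most 100 UMIs. Hematopoietic stem and progenitor cell (HSPC)-like, granulocyte-monocyte progenitor (GMP)-like, basophil-like, megakaryocyte-like, and erythroid-like classes had at least 50 cells in every library. Monocyte-like cells did so in CBM, TBM, and CS, with 3 cells in TS, and no cluster qualified as macrophage-like. In monocyte-like cells the GMP markers summed to more than the monocyte markers, at 11702 against 5063 CPM in CBM, 7248 against 6201 in TBM, and 15533 against 3922 in CS. In GMP-like cells the monocyte markers summed to 643 CPM in TS and up to 1439 in TBM. The monocyte-like class therefore held cells with progenitor genes and is not a class of mature monocytes alone. Of 54 cells whose barcode was kept in a pair of libraries, 27 barcodes in all, the CBM and TBM pair held 9 barcodes against 2.23 given by chance, and the 54 cells carried 43 *Cybb* and 29 *Ptgs2* UMIs. The neutrophil-like cluster was checked against its 14 markers. The markers summed to 361029 CPM in the 54 TBM cells and to 18443 CPM in the 30 CBM cells, and all 14 were at 0 in the 3 CS cells, so the CS cells there went against the label. With 30 cells in CBM and 6 in TS, under the minimum of 50, neutrophil-like levels are compared with other classes for TBM alone.

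The sequences just before 3 of the genes are shown because, among named classes with at least 50 cells, *Ptgs2* and *Cd274* had their highest levels in basophil-like cells and *Cybb* in neutrophil-like and monocyte-like cells. Each is the 250 bases up to the RefSeq start on GRCm38.p6, which the table gave for 6 of the 10 genes, and 6 motifs were searched on both strands: CACGTG for the E-box, TTGCNNAA for C/EBP, TGANTCA for AP-1, AGATAA for GATA factors, the IRF motif of a pair of GAAA blocks with any 2 bases between them, and an NF-kB motif. Capitals mark every match, and none overlaps another.
*Ptgs2* (chr1:150099781-150100030, plus strand): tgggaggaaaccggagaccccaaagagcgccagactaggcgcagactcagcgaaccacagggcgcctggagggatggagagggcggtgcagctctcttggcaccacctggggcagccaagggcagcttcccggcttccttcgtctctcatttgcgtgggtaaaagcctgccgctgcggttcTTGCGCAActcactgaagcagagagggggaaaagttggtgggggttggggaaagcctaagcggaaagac
*Cd274* (chr19:29367188-29367437, plus strand): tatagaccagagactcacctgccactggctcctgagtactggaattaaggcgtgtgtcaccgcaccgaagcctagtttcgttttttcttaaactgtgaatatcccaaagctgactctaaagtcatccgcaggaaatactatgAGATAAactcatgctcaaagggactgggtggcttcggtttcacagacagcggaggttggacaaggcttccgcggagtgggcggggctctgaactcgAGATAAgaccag
*Cybb* (chrX:9469325-9469574, minus strand): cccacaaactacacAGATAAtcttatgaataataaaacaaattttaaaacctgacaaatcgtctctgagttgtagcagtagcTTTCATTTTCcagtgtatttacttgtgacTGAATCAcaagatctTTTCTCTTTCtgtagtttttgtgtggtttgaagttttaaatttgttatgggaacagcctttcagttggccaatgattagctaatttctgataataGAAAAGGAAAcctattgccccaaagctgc

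The *Ptgs2* stretch held 1 C/EBP match, a motif found in 9.56% of 32851 promoters of this length. *Cd274* held 2 GATA matches, a motif found in 9.99% of promoters. *Cybb* held 3 IRF matches, where 2.98% of promoters have any, with 1 AP-1 match (6.75% of promoters) and 1 GATA match, in a window that lies inside the longer *Cybb* gene of GENCODE M21. *Tgfb1*, *Il4ra*, and *Trem1* had no match to any of the 6 motifs in their 250 bases, which says only that these letters are not in this window.

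*Arg1*, the arginase of alternatively activated macrophages and suppressor cells, was sparse. It had 218 UMIs in 193 of all 16261 cells, 44 in CBM and 57 in TBM, with 69 in CS and 48 in TS. In no named class with at least 50 cells did *Arg1* stand above free RNA, which itself held 2.58 CPM in CBM and 1.32 in TBM, with 1.18 in CS and 0.277 in TS. The HSPC-like level was 0.639 CPM in CBM and 0.585 in TBM, with 0.694 in CS and 0.838 in TS, and the TBM neutrophil-like cells had 0 *Arg1* UMIs, which allows up to 4.73 CPM. *Nos2*, whose product makes nitric oxide from the same amino acid, had 9 UMIs in 9 cells of the whole data set, too few for any comparison.

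*Arg2*, the mitochondrial arginase, had 62 UMIs in all, and 39 of them lay in the 54 TBM neutrophil-like cells. These 39 UMIs were spread over 22 cells, with at most 4 in 1 cell, and gave 61.5 CPM (43.8 to 84.1) against 0.330 CPM in TBM free RNA. After every cell was thinned to 2000 UMIs, 18.5% of the TBM neutrophil-like cells (9.25% to 31.4%) still had an *Arg2* UMI, while none of the erythroid-like cells of any library did. The 2 CBM UMIs of *Arg2* lay in HSPC-like and monocyte-like cells, so the 30 CBM cells of the neutrophil-like cluster had none in 419391 UMIs. No other class held more than 5 *Arg2* UMIs in a library. The transcript overlaps *Vti1b* and *Gm48780* on the opposite strand.

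Among 11 further genes of arginine and tryptophan metabolism, *Ido1*, the tryptophan-degrading checkpoint enzyme, had at most 3 UMIs in the HSPC-like cells of a library and 0 in GMP-like and basophil-like cells. In basophil-like cells 3 of the 6 genes of this list with enough UMIs were at least 2-fold higher in TBM than in CBM: *Odc1*, the first enzyme of polyamine synthesis, at 70.9 against 34.96 CPM, *Oat*, the ornithine aminotransferase, at 33.7 against 15.2 CPM, and the arginine transporter *Slc7a1* at 15.4 against 7.16 CPM. TBM cells of this class lay equally in clusters 1 and 21 (229 cells in each), where CBM had 411 and 44, and GMP markers summed to 1696 CPM in CBM and 2828 in TBM, whose part was not tested. Within cluster 1 *Odc1* was at 66.0 CPM in TBM and 34.9 in CBM, *Oat* at 20.1 and 13.8 CPM, and *Slc7a1* at 13.7 and 4.99 CPM, and only *Slc7a1* was past the fold there. Within cluster 21 *Odc1* and *Oat* were past the fold, at 72.9 against 32.5 CPM and 40.9 against 16.3 CPM, the CBM values on 12 and 6 UMIs. Of all genes tested in that class 6.07% were past the fold upward, and the median log2 ratio of the 6 was 0.66 against -0.03 for all genes. In HSPC-like and monocyte-like cells none of this list was past the fold in the marrow (3.91% and 7.21% of all genes in either direction), and in GMP-like cells 1 of 7 was higher (2.95% of all genes).

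*Cybb* encodes gp91phox, the catalytic subunit of the phagocyte NADPH oxidase. Its level was 1070 CPM (991 to 1154) in the TBM neutrophil-like cells, and the 30 CBM cells of that cluster, with a lower level of neutrophil markers, held 811 CPM (727 to 902). Monocyte-like cells followed with 314 CPM in TBM, 176 in CBM, and 128 in CS, and their 3 intervals lay apart. GMP-like cells held 23.7 CPM in CBM (19.97 to 28.0) and 64.1 in TBM (61.5 to 66.7), with 39.1 in CS (32.5 to 46.8) and 53.1 in TS (49.7 to 56.8), so CBM was the lowest and TBM the highest with no interval touching another. The marrow GMP-like values did not stand above free RNA, at 58.0 CPM in CBM and 60.5 in TBM, while free RNA of the spleen libraries held 6.91 in CS and 6.65 in TS. The 14 neutrophil markers summed to 669 and 896 CPM in the CBM and TBM GMP-like cells, with 4 and 1 of them at 0, and to 331 and 590 CPM in CS and TS, with 5 and 4 at 0. Thinned shares of GMP-like cells with a *Cybb* UMI were 6.98% in CBM and 11.8% in TBM, with 5.41% in CS and 10.2% in TS, against 2.14%, 1.53%, 0.0842%, and 0% of the erythroid-like cells.

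*Cybb* was higher in TBM than in CBM by a log2 ratio of 1.43 (1.18 to 1.69) in GMP-like cells, of 1.00 (0.24 to 1.80) in HSPC-like cells, and of 1.85 (0.98 to 2.77) in B-lineage-like cells. The GMP-like class was made of 3 clusters in unequal parts. In the GMP-like cluster 14, which held 156 CBM and 550 TBM cells, *Cybb* was at 30.9 CPM in CBM and 62.7 in TBM, a log2 ratio of 1.02 (0.76 to 1.29), and in cluster 3 it was at 5.98 and 7.40 CPM, with intervals that overlap. Cluster 30, with 90.9 CPM of *Cybb* in TBM, had 263 TBM cells and 4 CBM cells. The HSPC-like and B-lineage-like levels of *Cybb*, 1.84 against 3.68 CPM and 11.4 against 41.1 CPM, all lay below marrow free RNA. The 14 neutrophil markers moved with them, from 30.4 to 141 CPM in HSPC-like cells, where 3 markers were at 0 in CBM and 1 in TBM, and from 42.4 to 393 CPM in B-lineage-like cells, where 5 and 3 were at 0; their part in the *Cybb* difference was not tested. With classes taken from each cell's own markers in place of clusters, the *Cybb* ratio was -0.38 in HSPC-like and 0.60 in GMP-like cells. In monocyte-like cells the same markers summed to 173 CPM in CBM, 5478 in TBM, and 55.1 in CS, with 1, 2, and 4 at 0. Within the monocyte-like cluster 13, *Cybb* was at 418 CPM in CBM and 375 in TBM, and the class difference of 0.83 (0.76 to 0.90) went along with more CBM cells, 394 against 42, in cluster 11, where *Cybb* was at 67.8 and 85.2 CPM.

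Other genes of the oxidase complex were measured in all these classes. None of *Cyba*, *Ncf1*, *Ncf4*, *Rac1*, and *Rac2* was past 2-fold between tumor-bearing and control libraries in HSPC-like, GMP-like, monocyte-like, or basophil-like cells, in the marrow or, where there were cells, in the spleen. In these comparisons 3.91% (HSPC-like, marrow) to 10.8% (basophil-like, marrow) of all genes were past it in either direction. *Ncf4*, the p40phox subunit, was at 106 CPM in CBM and 193 CPM in TBM monocyte-like cells. *Ncf1*, the p47phox organizer, was at 582 CPM in TBM neutrophil-like cells and at 503, 284, 405, and 260 CPM in the basophil-like cells of CBM, TBM, CS, and TS, cells in which *Cybb* stayed between 0.972 and 4.51 CPM.

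**Figure D1:**
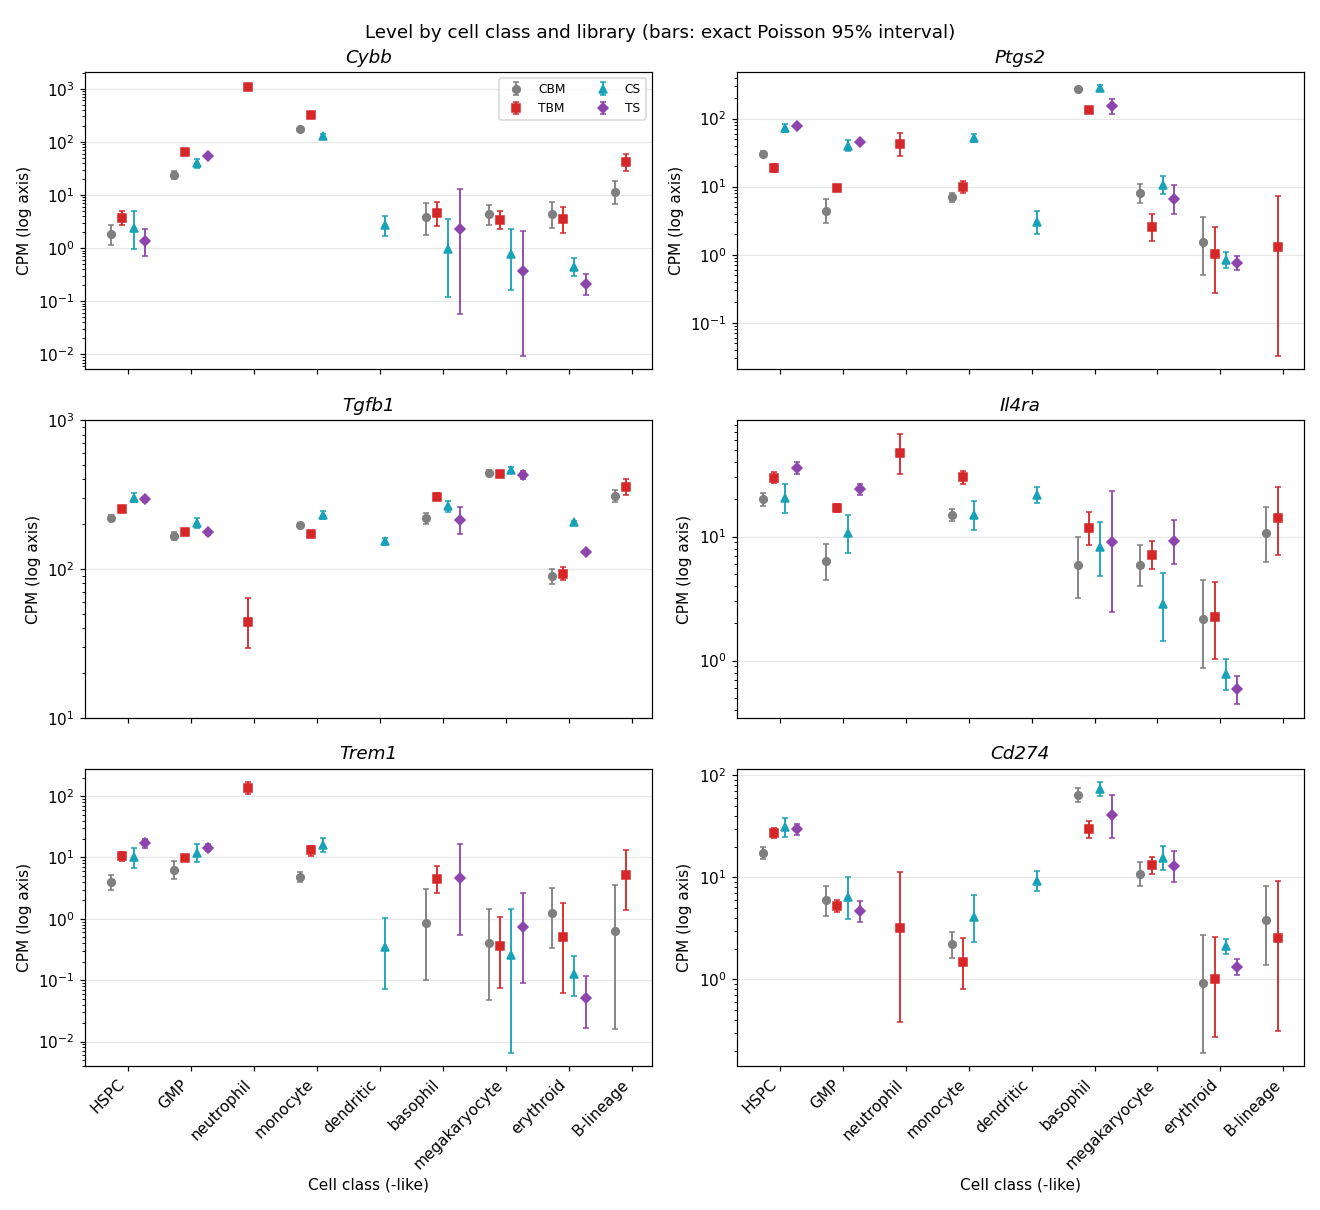
Level in CPM (log axis) of 6 genes by cell class and library, with exact Poisson 95% intervals as bars; classes with fewer than 50 cells in a library and levels of 0 UMIs are not drawn. *Cybb* and *Trem1* peak in the TBM neutrophil-like cells at 1070 and 137 CPM, *Ptgs2* and *Cd274* in basophil-like cells, and *Tgfb1* lies between 44.2 and 463 CPM throughout.

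*Ptgs2*, which encodes the inducible cyclooxygenase COX-2 and so the committed step of prostaglandin synthesis, was highest in basophil-like cells. There it was at 273 CPM in CBM (252 to 294) and 132 in TBM (121 to 144), with 283 in CS (260 to 307) and 150 in TS (116 to 191). Both control libraries were above both tumor-bearing libraries. Basophil-like cells were 13.6% of the kept CBM cells and held 49.96% of its *Ptgs2* UMIs, and they were 10.4% of the CS cells with 39.1% of its *Ptgs2* UMIs. The signal was uneven between cells: in CBM 114 of 474 basophil-like cells had a *Ptgs2* UMI, 20 cells held 50% of the 647 UMIs, and 1 cell had 39. Thinned shares were 19.7%, 12.3%, 22.7%, and 17.8% in CBM, TBM, CS, and TS, where erythroid-like cells had 0%, 0.510%, 0.0842%, and 0.141%.

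The TBM over CBM log2 ratio of *Ptgs2* in basophil-like cells was -1.05 (-1.22 to -0.88). The class is made of clusters that the libraries fill differently. Cluster 1, led by *Ccl6*, *Ccl3*, and *Ccl4*, held 411 of the CBM cells and 229 of the TBM cells, and *Ptgs2* was at 336 CPM there in CBM and 254 in TBM, with 368 in CS and 253 in TS. Cluster 21, led by the basophil proteases *Prss34* and *Mcpt8*, held 44 CBM and 229 TBM cells, and *Ptgs2* was at 108 CPM in CBM and 73.3 in TBM. Within each cluster TBM was lower, but by less than 2-fold, and as means of each cell's own CPM the class ratio was -0.73. TS over CS was -0.91 (-1.30 to -0.54) for the class, on 66 TS UMIs, of which 59 lay in 10 cells. In the class the GMP markers summed to 577 CPM in CS and 3113 in TS and the basophil markers to 10431 and 26465 CPM, and in the marrow to 1696 and 2828 CPM and to 19397 and 32112 CPM in CBM and TBM. Both sums were higher in the tumor-bearing libraries, where *Ptgs2* and *Cd274* were lower, and their part was not tested.

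In progenitors *Ptgs2* was higher in the spleen than in the marrow, which was also prepared differently, and the part of this was not tested. GMP-like cells had 4.44 CPM in CBM and 9.61 in TBM, with 40.1 in CS and 45.2 in TS, and only the spleen values stood above free RNA, which held 21.1, 12.2, 10.3, and 8.87 CPM. The spleen over marrow log2 ratio was 3.17 (2.56 to 3.84) in control mice and 2.23 (2.05 to 2.42) in tumor-bearing mice. Monocyte-like cells had 6.93 CPM of *Ptgs2* in CBM and 52.1 in CS, a log2 ratio of 2.91 (2.59 to 3.23), with 9.90 CPM in TBM. TBM over CBM was 1.11 (0.54 to 1.75) in GMP-like cells, with both levels below free RNA, and -0.69 (-0.93 to -0.45) in HSPC-like cells. HSPC-like cells had 30.6 CPM in CBM and 19.0 in TBM, with 73.2 in CS and 77.6 in TS, and again the spleen libraries were the higher ones. The basophil markers in HSPC-like cells were also higher in the spleen, at 78.6 CPM in CBM and 112 in TBM against 193 in CS and 131 in TS, and their part was not tested. With classes taken from each cell's own markers the HSPC-like CS over CBM ratio was 0.03, against 1.26 (1.01 to 1.51) by clusters, and the GMP-like TBM over CBM ratio was 0.05.

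The tissue difference in *Ptgs2* was also seen inside single clusters that both tissues filled. In the GMP-like cluster 14 it was at 3.36 CPM in CBM and 39.2 in CS, and at 5.54 in TBM and 18.01 in TS. The cluster 14 level was lower in TS than in CS, by a log2 ratio of -1.12 (-1.57 to -0.67), while the class as a whole showed 0.17 (-0.10 to 0.46), and cluster 30, which is almost absent from control libraries, held 58.7 CPM in TS and 12.3 in TBM. In the monocyte-like cluster 11 *Ptgs2* was at 7.24 CPM in CBM, 19.8 in TBM, and 57.4 in CS. In the unnamed cluster 7, which expressed the mast cell and basophil genes *Cpa3*, *Ms4a2*, and *Fcer1a*, it was at 7.08 CPM in CBM and 9.43 in TBM, with 51.4 in CS and 96.9 in TS. In the HSPC-like cluster 0, which held 685 CBM cells and 54 CS cells, the levels were 31.2 and 36.2 CPM with overlapping intervals. In basophil-like cells the tissues lay closer: CS over CBM was 0.05 (-0.11 to 0.22) and TS over TBM 0.19 (-0.20 to 0.56).

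**Figure D2:**
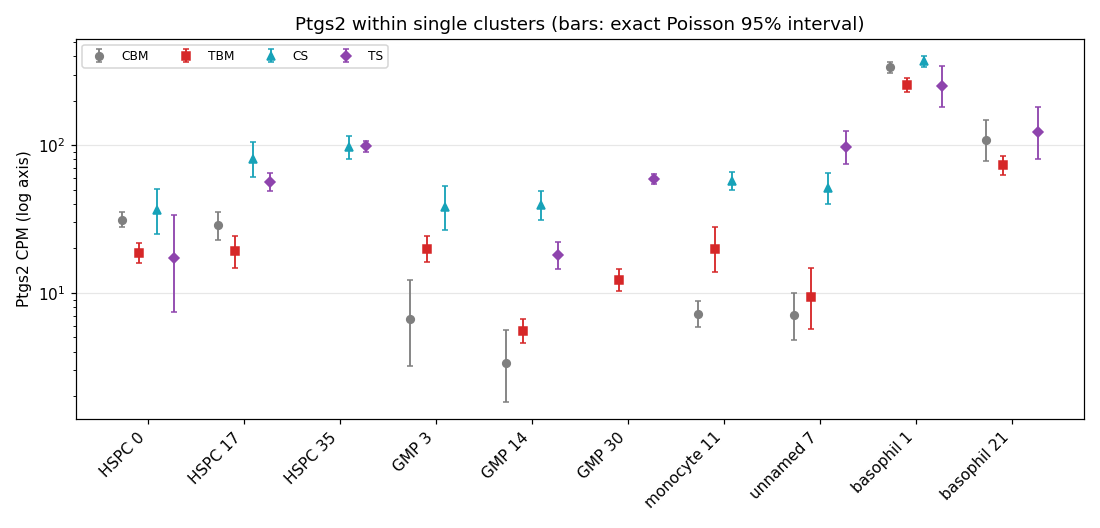
*Ptgs2* level in CPM (log axis) within single clusters, by library, with exact Poisson 95% intervals as bars and a point for each library with at least 20 cells in the cluster. The spleen libraries lie above the marrow libraries in GMP-like, monocyte-like, and the unnamed cluster 7 (7.08 CPM in CBM and 51.4 in CS), while the control libraries lie highest in basophil-like cluster 1.

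Around *Ptgs2*, 11 genes of prostaglandin and leukotriene synthesis and response were read. *Ptger4*, a receptor for prostaglandin E2, was at 54.8 CPM in CBM basophil-like cells and at 24.7 in TBM, with 56.9 in CS and 34.2 in TS, and the TBM over CBM log2 ratio was -1.15 (-1.55 to -0.75), the 1 gene of 8 past the fold there, where 4.75% of all genes were lower. Within cluster 1 *Ptger4* was at 66.5 CPM in CBM and 41.1 in TBM, not past the fold. *Hpgds*, the hematopoietic prostaglandin D synthase, was at 33.0 CPM in CS and 27.3 in TS basophil-like cells against 6.32 in CBM and 7.97 in TBM (3.17% of all genes were higher in CS than in CBM and 1.96% in TS than in TBM). Within cluster 1, which held 10 of the 68 CS UMIs of *Hpgds*, the levels were 6.57 CPM in CS and 4.98 in CBM, too few UMIs for a call, and cluster 23 held 13.1% of the CS and 4.01% of the CBM cells. Cluster 23 was led by *Gzmb*, *Cpa3*, *Scin*, and the mast cell marker *Cma1*. With 19 CBM and 8 TBM cells there, *Hpgds* was not compared within it. For TS and TBM cluster 1 had 6.17 and 8.05 CPM, on 1 and 10 UMIs, and cluster 21 had 9.89 and 5.67 CPM, on 2 and 14, also too few for a call, while cluster 23 held 12% of the TS and 1.72% of the TBM cells. *Hpgd*, the enzyme that breaks prostaglandins down, was higher in TBM than in CBM monocyte-like cells, 25.9 against 5.74 CPM, and lower in TS than in CS HSPC-like cells, 0.314 against 7.64 CPM, the 1 gene of 8 past the fold there (3.05% of all genes were lower). Of the 22 CS UMIs of *Hpgd* 21 lay in cluster 0, with 39.1% of the CS and 7.36% of the TS cells, where the levels were 6.43 CPM in TS and 22.4 in CS. The monocyte-like *Hpgd* difference held within cluster 13, at 29.0 CPM in TBM and 9.37 in CBM. For TBM over CBM this list had 1 gene higher and 1 lower of 10 in HSPC-like cells (2.12% and 1.79% of all genes) and 1 higher of 11 in GMP-like (2.95%) and in monocyte-like cells (3.55%).

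*Il10*, the anti-inflammatory cytokine IL-10, had 402 UMIs in 205 cells, and HSPC-like cells held 268 of them. Their level was 3.59 CPM in CBM (45 UMIs in 26 of 792 cells) and 1.67 in TBM (20 UMIs in 15 of 816 cells), with 15.6 in CS (45 UMIs in 19 of 138 cells) and 16.6 in TS (158 UMIs in 71 of 652 cells). The 2 spleen libraries did not differ from each other beyond counting error and lay above both marrow libraries. CBM, CS, and TS stood above free RNA, which held 0.430, 0.592, and 1.39 CPM, and TBM did not. The log2 ratio was 2.12 (1.49 to 2.75) for CS over CBM, 3.31 (2.63 to 4.06) for TS over TBM, and -1.10 (-1.94 to -0.31) for TBM over CBM. The first was 0.77 with classes from each cell's own markers, and the last was -0.48 as means of each cell's own CPM. Thinned shares of cells with an *Il10* UMI were 0.631% in CBM and 0.491% in TBM, with 2.90% in CS and 2.61% in TS, while erythroid-like cells had none in any library.

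*Il10* was concentrated in few cells, with 17 TS HSPC-like cells holding 50% of the 158 UMIs and at most 12 UMIs in 1 cell. It was also unequal between the 3 HSPC-like clusters. Cluster 0, led by *Hlf*, held 86.5% of the CBM HSPC-like cells, and *Il10* was at 3.47 CPM there in CBM and 2.01 in TBM, with 2 UMIs in CS and 0 in TS. Cluster 35, led by *Cxcl2*, held 424 (65.0%) of the TS and 63 (45.7%) of the CS HSPC-like cells, with 11 TBM cells and 1 CBM cell, and *Il10* was at 22.5 CPM there in CS and 22.1 in TS. Cluster 17 had at least 20 cells of every library, with 21 in CS. There *Il10* was at 3.996 CPM in CBM and 0.597 in TBM, with 21.5 in CS and 10.97 in TS. The spleen values were higher in this shared cluster too, by a log2 ratio of 2.43 (1.24 to 3.66) in control mice and 4.201 (2.26 to 7.29) in tumor-bearing mice. The tissues differed within cluster 17: *Egr1* was at 187 CPM in CBM and 205 in TBM, with 965 in CS and 1050 in TS. *Dntt* was at 167, 72.2, 11.5, and 16.5 CPM in CBM, TBM, CS, and TS, and the part of such differences was not tested. The cells of cluster 35 came almost all from the spleen, mostly from TS, and *Cxcl2* was at 339 CPM in its CS and 409 in its TS cells. In cluster 17 *Cxcl2* was at 96.2 CPM in CS and 287 in TS, with 7.33 in CBM and 18.2 in TBM. Of the TS HSPC-like cells with a *Ptgs2* UMI 15.2% also had an *Il10* UMI, against 8.62% of those without, at median depths of 15929 and 11930 UMIs, and the part of depth was not tested.

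Outside HSPC-like cells *Il10* was sparse. Basophil-like cells had 0 UMIs in all 4 libraries, which allows at most 1.26 CPM in CBM and 6.84 CPM in TS. TS GMP-like cells had 35 UMIs (2.14 CPM) against 1 UMI in CS, a log2 ratio of 2.72 whose interval runs from 0.15 to 8.07, and 33 of the 35 lay in cluster 30. In CS monocyte-like cells 12 of 16 *Il10* UMIs came from 1 cell.

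**Figure D3:**
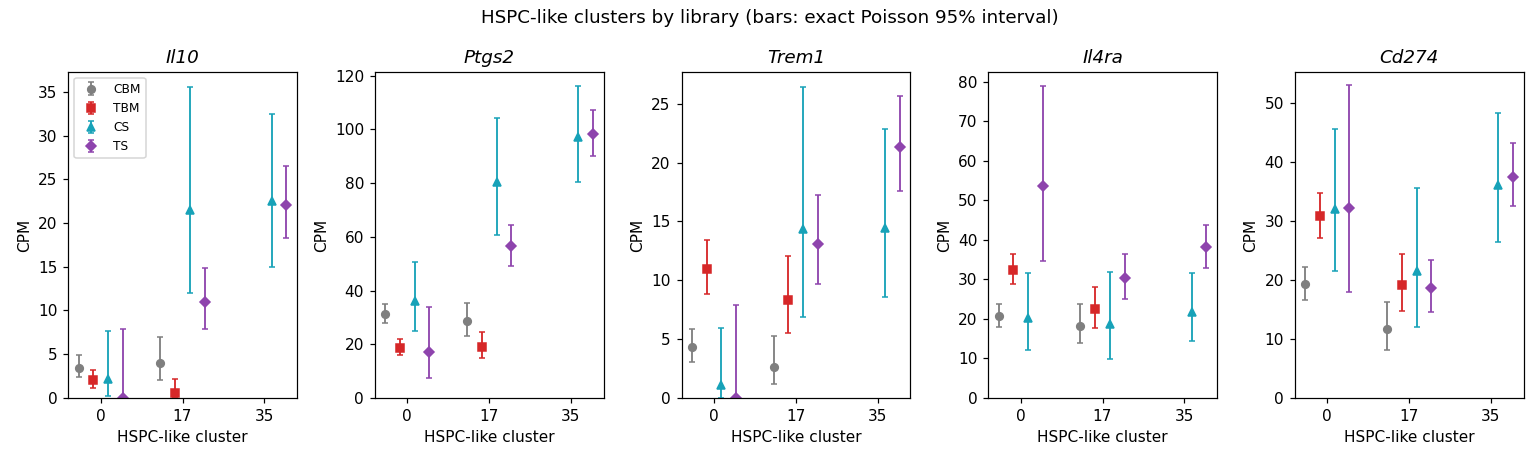
Levels in CPM of *Il10*, *Ptgs2*, *Trem1*, *Il4ra*, and *Cd274* in the 3 HSPC-like clusters by library, with exact Poisson 95% intervals as bars and a point for each library with at least 20 cells in the cluster. In TS *Il10* and *Ptgs2* are highest in cluster 35, at 22.1 and 98.4 CPM, and in cluster 17 both spleen libraries lie above both marrow libraries for these genes.

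*Tgfb1*, the transforming growth factor beta 1 precursor, was found in 88.6% of all cells. Among named classes with at least 50 cells it was highest in megakaryocyte-like cells, the lineage that packs this factor into platelets, at 441 CPM in CBM and 437 in TBM, with 463 in CS and 428 in TS, and their intervals overlapped. Free RNA held 182, 192, 194, and 139 CPM in these libraries, so GMP-like levels of 166 to 204 CPM could not be told from free RNA except in TS. HSPC-like cells had 222 CPM in CBM and 255 in TBM, with 302 in CS and 294 in TS, with both spleen libraries above both marrow libraries by less than 2-fold. The TBM neutrophil-like cells were the lowest of these classes, at 44.2 CPM (29.4 to 63.9). Outside them, *Tgfb1* was at 13.8 CPM (3.75 to 35.3) in the 33 cells of dendritic-like cluster 38 and at 517 CPM (470 to 568) in the unnamed cluster 12. The 1 class past the fold was the erythroid-like one, with 89.2 CPM in CBM and 207 in CS, where CBM cells lie mainly in the hemoglobin-rich clusters 16 and 29 and CS cells in clusters 20 and 27, so different cells were compared.

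*Il4ra*, the shared receptor subunit for IL-4 and IL-13, was higher in the tumor-bearing library of both tissues in HSPC-like and GMP-like cells. GMP-like cells had 6.32 CPM in CBM and 17.1 in TBM, with 10.7 in CS and 24.1 in TS, with log2 ratios of 1.44 (0.96 to 1.95) in the marrow and 1.17 (0.66 to 1.73) in the spleen. HSPC-like cells had 20.04, 29.8, 20.5, and 35.7 CPM, with log2 ratios of 0.58 (0.34 to 0.81) and 0.80 (0.40 to 1.23), which are under 2-fold. Monocyte-like cells had 14.9 CPM in CBM, 30.1 in TBM, and 14.9 in CS. The neutrophil markers in these cells, 173 CPM in CBM and 5478 in TBM, moved with *Il4ra*, which was at 47.3 CPM in the TBM neutrophil-like cells, and their part was not tested. With classes from each cell's own markers the TBM over CBM ratio was 0.79 in GMP-like and 0.83 in monocyte-like cells, under 2-fold. Free RNA held 15.0 CPM of *Il4ra* in CBM and 15.9 in TBM, above the CBM GMP-like level and near the TBM one.

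The *Il4ra* difference was seen in the clusters listed next, which both libraries filled. In GMP-like cluster 3 it was at 5.31 CPM in CBM and 26.3 in TBM, a log2 ratio of 2.31 (1.29 to 3.55), and in cluster 14 at 6.95 and 11.6 CPM. In monocyte-like cluster 13 it was at 12.8 CPM in CBM and 30.2 in TBM, and in HSPC-like cluster 0 at 20.6 and 32.4 CPM. For the spleen, cluster 14 had 6.11 CPM in CS and 14.7 in TS, and HSPC-like cluster 0 had 20.3 and 53.6 CPM. Among classes with few cells, *Il4ra* was at 327 CPM (247 to 424) in the 21 CS cells of the dendritic-like cluster 38, which expressed *Ccr7* and *Fscn1*, genes of migrating dendritic cells, against 15.6 CPM in the 324 CS cells of the other dendritic-like cluster.

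Of 16 further genes of IL-4, IL-10, and TGF-beta signalling, *Il4* itself was found in basophil-like cells at 155 CPM in CBM and 91.3 in TBM, with 156 in CS and 95.7 in TS, and in HSPC-like cells at 1.28, 1.09, 4.17, and 3.88 CPM. None of the 13 genes with enough UMIs in HSPC-like cells, or of the 12 in GMP-like cells, was past 2-fold between TBM and CBM or between TS and CS. Of all genes 3.91% and 4.37% were past it in either direction in HSPC-like cells, and 4.79% and 5.99% in GMP-like cells, so few were to be counted in a list of this size. In monocyte-like cells *Il13ra1*, the partner of *Il4ra* in the receptor for IL-13, was at 8.52 CPM in TBM and 2.39 in CBM, and *Smad3*, which carries the TGF-beta signal, was at 2.19 and 4.88 CPM, the 1 gene higher and the 1 lower of 13 (3.55% and 3.66% of all genes). Both held within cluster 13, at 9.71 against 4.04 CPM and 2.09 against 4.84 CPM. In B-lineage-like cells 2 of 12 were higher in TBM (3.23% of all genes), *Il10ra* at 38.6 against 13.3 CPM and *Tgfbr2* at 118 against 54.4 CPM. The neutrophil markers there were at 42.4 CPM in CBM and 393 in TBM, and their part was not tested.

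*Trem1*, an activating receptor of neutrophils and monocytes, was highest in the TBM neutrophil-like cells at 137 CPM (110 to 169), with a UMI in 38.9% of them after thinning. HSPC-like cells had 3.91 CPM in CBM (49 UMIs) and 10.4 in TBM (124), with 10.1 in CS (29) and 16.97 in TS (162). CBM was the lowest library in HSPC-like, GMP-like, and monocyte-like cells. The TBM over CBM log2 ratio was 1.41 (0.92 to 1.91) in HSPC-like cells, 0.62 (0.13 to 1.15) in GMP-like cells, where the levels were 6.32 and 9.74 CPM, and 1.43 (1.03 to 1.83) in monocyte-like cells, where they were 4.83 and 13.01 CPM. *Trem1* in free RNA was also higher in TBM, at 7.27 CPM against 3.44 in CBM, and no TBM level in these 3 classes stood above it beyond counting error. The part of this, and of the neutrophil markers given above for these classes, was not tested. Within clusters the log2 ratio was 1.35 (0.80 to 1.91) in HSPC-like cluster 0, 1.65 (0.48 to 2.99) in cluster 17, 1.504 (0.51 to 2.68) in GMP-like cluster 3, and 1.28 (0.71 to 1.89) in monocyte-like cluster 13. Cluster 3 held only 25.6% of the CBM and 18.3% of the TBM GMP-like cells. Cluster 14 held 72.6% and 55.3%, its ratio is not given here, and the GMP-like class ratio of 0.62 was under 2-fold.

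In the spleen *Trem1* stood above free RNA in HSPC-like and GMP-like cells of both libraries and in CS monocyte-like cells, and not in the other classes with at least 50 cells. Free RNA held 1.58 CPM in CS and 2.22 in TS. CS over CBM was 1.36 (0.65 to 2.06) in HSPC-like cells and 1.72 (1.24 to 2.19) in monocyte-like cells, the latter at 1.81 (1.28 to 2.34) within cluster 11. Among HSPC-like clusters *Trem1* had 1 UMI in CS and 0 in TS in cluster 0, 14.4 CPM in CS and 13.1 in TS in cluster 17, where CBM had 2.66 and TBM 8.36 CPM, and 14.4 CPM in CS and 21.3 in TS in cluster 35. Without cluster 35 the CS over CBM ratio was 0.78. The gene for the adaptor through which TREM receptors signal, *Tyrobp*, was within 2-fold in these classes, while *Trem3*, a neighbouring receptor gene, was higher in TBM than in CBM HSPC-like cells, 7.69 against 2.47 CPM, and was at 6.08 CPM in TS and 2.08 in CS (1.32% of all genes were higher), a difference that rests on 6 CS UMIs. The marrow difference held within clusters 0 and 17, while for the spleen *Trem3* had 0 UMIs in TS and 4 in CS in cluster 0, 7.06 against 1.44 CPM in cluster 17, not past the fold, and 5.90 against 0.802 CPM in cluster 35, past it on 1 CS UMI. *Trem2*, the macrophage receptor of the family, was at 82.0 CPM in TBM monocyte-like cells, 33.1 in CBM, and 6.16 in CS, but 80.3% of the TBM cells lay in cluster 13 and 49.1% of the CBM and 78.6% of the CS cells in cluster 11. Within cluster 13 *Trem2* was at 104 CPM in TBM and 89.2 in CBM, and within cluster 11 at 10.5 CPM in TBM, 9.20 in CBM, and 4.28 in CS. Of the 8 further genes of this list, 1 was past the fold upward and none downward for TBM over CBM in each of HSPC-like (of 6 with enough UMIs, 2.12% of all genes higher), GMP-like (of 7, 2.95%), and monocyte-like cells (of 7, 3.55%).

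*Cd274*, the gene for PD-L1, was highest, among named classes with at least 50 cells, in basophil-like cells, at 64.9 CPM in CBM (55.0 to 76.0) and 29.7 in TBM (24.5 to 35.8), with 73.4 in CS (62.1 to 86.1) and 41.0 in TS (24.3 to 64.8). As for *Ptgs2*, the control libraries were the higher ones, though the CS and TS intervals met and the TBM interval overlapped that of TBM HSPC-like cells, with a TBM over CBM log2 ratio of -1.13 (-1.49 to -0.76) and TS over CS of -0.84 (-1.63 to -0.13). Within cluster 1 the levels were 71.4 CPM in CBM and 40.3 in TBM, and within cluster 21 they were 46.1 and 24.3 CPM, lower in TBM in both without passing the call of 2-fold. As means of each cell's own CPM the class ratio was -0.68. *Cd274* and *Ptgs2* UMIs were not gathered in the same cells, as 18.4% of CBM basophil-like cells with a *Ptgs2* UMI and 25.8% of those without one had a *Cd274* UMI, at median depths of 4216.5 and 4224 UMIs.

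HSPC-like cells had *Cd274* at 17.4 CPM in CBM and 27.4 in TBM, with 31.2 in CS and 29.6 in TS, all above free RNA. CBM was the lowest, and TBM over CBM was 0.66 (0.40 to 0.91), under 2-fold. The sums of the 8 basophil markers in these cells, given under *Ptgs2*, with 2 of the markers at 0 in CS, had the same order of libraries, and their part was not tested. GMP-like and monocyte-like cells held 4.64 to 6.47 CPM and 1.497 to 4.10 CPM, which did not stand above free RNA in any library, and the TBM neutrophil-like cells had 2 UMIs. In the dendritic-like cluster 38 the 21 CS cells had *Cd274* at 99.2 CPM (57.8 to 159).

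Among 16 further checkpoint ligands and inhibitory receptors, 4 of the 13 with enough UMIs were at least 2-fold higher in TBM than in CBM HSPC-like cells and none lower, where 2.12% of all genes were higher in that class. They were *Pdcd1lg2*, which encodes PD-L2, at 12.1 against 3.43 CPM, the inhibitory receptor genes *Havcr2* at 4.60 against 2.16 CPM and *Lilrb4a* at 7.86 against 2.79 CPM, and *Ctla4* at 2.01 against 0.559 CPM. TBM free RNA held 3.96 CPM of *Pdcd1lg2*, 1.98 of *Havcr2*, 64.1 of *Lilrb4a*, and 0.661 of *Ctla4*, so *Lilrb4a* lay below it. The neutrophil markers in these cells, 30.4 CPM in CBM and 141 in TBM, moved the same way, and their part was not tested. Within HSPC-like cluster 0 all 4 were past the fold, with *Pdcd1lg2* at 14.9 CPM in TBM and 4.10 in CBM. Within cluster 17 only *Pdcd1lg2* was, at 5.67 against 0.999 CPM, while *Lilrb4a* was at 4.77 CPM in TBM and 2.33 in CBM, and *Havcr2*, with 8 UMIs in TBM and 9 in CBM, and *Ctla4*, with 4 and 2, had too few for a call. The median log2 ratio of the 13 was 0.16. *Pdcd1lg2* was at 7.64 CPM in CS and 13.2 in TS. In monocyte-like cells 2 of 11 were higher in TBM, *Cd86*, a costimulatory ligand that CTLA-4 also binds, at 27.3 against 9.42 CPM, and *Lilrb4a* at 68.3 against 27.9 CPM (3.55% of all genes were higher). Neither was past the fold within a cluster: in cluster 13, which held 80.3% of the TBM and 38.6% of the CBM cells, *Cd86* was at 32.6 CPM in TBM and 21.5 in CBM and *Lilrb4a* at 87.5 and 76.4 CPM, and in cluster 11 *Cd86* was at 4.67 and 2.86 CPM and *Lilrb4a*, on 4 TBM UMIs, at 2.33 and 5.65 CPM, the other way. In GMP-like cells the same 2 of 11 were higher in TBM (2.95% of all genes). *Cd86* was not past the fold within clusters 3 and 14. *Lilrb4a* was, at 10.5 against 4.65 CPM in cluster 3 and 9.35 against 4.31 CPM in cluster 14, all below TBM free RNA. Between TS and CS HSPC-like cells *Lilrb4a* was higher, 14.2 against 4.17 CPM, and *Cd86* and *Sirpa* were lower, 2.93 against 7.64 and 9.01 against 21.5 CPM, of 11 with enough UMIs (1.32% of all genes were higher and 3.05% lower). These libraries filled the class differently, with 65.0% of the TS and 45.7% of the CS cells in cluster 35 and 7.36% and 39.1% in cluster 0. Within cluster 17 *Lilrb4a* was at 5.75 CPM in TS and 4.31 in CS and *Cd86* at 2.87 in both, neither past the fold, while *Sirpa* was lower, at 7.06 against 15.8 CPM. Within cluster 35 *Lilrb4a* was higher, at 21.3 against 5.62 CPM, *Cd86* was lower, at 2.28 against 7.22 CPM, and *Sirpa* was at 10.5 and 14.4 CPM, not past the fold.

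Over all 10 genes and the classes with at least 50 cells in both libraries, a gene was counted where it had at least 20 UMIs in the pair, differed at least 2-fold, and had an interval apart from no difference. Of 270 levels in 27 pairs of class and library, 63 stood above free RNA, and the share over all genes was not measured, so this count cannot be called few or many. TBM over CBM gave 12 of 36 counts past the fold, 8 higher and 4 lower. In HSPC-like cells *Cybb* and *Trem1* of 7 genes were higher, where 2.12% of all genes were, and *Il10* was lower, where 1.79% of all genes were. In GMP-like cells 3 of 7 were higher (2.95% of all genes), in monocyte-like cells 2 of 7 (3.55%), and in B-lineage-like cells 1 of 3 (3.23%). Of the 8 TBM levels called higher, only that of *Il4ra* in monocyte-like cells stood above free RNA. The HSPC-like *Cybb* ratio reversed with classes taken from each cell's own markers. In basophil-like cells 2 of 5 were lower (4.75% of all genes), in megakaryocyte-like cells 1 of 5 (1.03%), and in erythroid-like cells none of 2 passed in either direction (2.87%). The megakaryocyte-like gene was *Ptgs2*, at 7.94 CPM in CBM and 2.55 in TBM, both below free RNA, which was at 21.1 CPM in CBM and 12.2 in TBM. The median log2 ratio of the genes was 0.58 in HSPC-like, 0.62 in GMP-like, and 0.51 in monocyte-like cells, where the medians over all genes were 0.00, 0.05, and 0.02.

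TS over CS gave 4 of 29 counts past the fold, with 138 HSPC-like and 74 GMP-like cells on the CS side. None of 7 genes passed in HSPC-like cells (4.37% of all genes in either direction) and none of 4 in basophil-like cells (10.3%). The 2 GMP-like genes of 7 (1.94% of all genes higher) were *Il10* and *Il4ra*, and the 1 megakaryocyte-like gene of 4 (2.2%) was *Il4ra* at 9.23 against 2.87 CPM. GMP-like *Il10*, with 1 CS UMI, and both megakaryocyte-like *Il4ra* levels did not stand above free RNA. Megakaryocyte-like cluster 5 held 33.1% of the CS and 10.2% of the TS cells, and its part was not tested. The 1 erythroid-like gene of 7 (4.95% of all genes lower) was *Cybb*, at 0.212 in TS against 0.446 CPM in CS, both below free RNA. Different cells were compared there, since 542 and 481 of the 1188 CS cells lay in clusters 20 and 27, and 890, 751, 482, and 566 of the 2838 TS cells in clusters 24, 25, 36, and 37.

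Spleen over marrow gave 11 of 34 counts in control mice, 7 higher and 4 lower, and 9 of 30 in tumor-bearing mice, 5 higher and 4 lower. In control mice 3 of 7 HSPC-like genes (*Ptgs2*, *Il10*, *Trem1*) were higher in CS (2.06% of all genes), 1 of 6 GMP-like genes (2.32%), and 2 of 6 monocyte-like genes (2.17%), with none of 4 in basophil-like cells (5.15% in either direction). In tumor-bearing mice *Ptgs2* and *Il10* of 7 HSPC-like genes were higher (1.46% of all genes) and *Cybb* was lower (3.54%), *Ptgs2* and *Il10* of 8 GMP-like genes were higher (1.9%), and none of 4 passed in basophil-like cells (4.01% in either direction).

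In megakaryocyte-like cells *Cybb* and *Il4ra* were lower in CS than in CBM (1.29% of all genes lower), and *Cybb* was lower (2% of all genes) and *Ptgs2* higher (1.4%) in TS than in TBM. In erythroid-like cells *Cybb* and *Il4ra* were lower in the spleen of both kinds of mice, where 8.06% of all genes were lower in control and 9.34% in tumor-bearing mice, and *Tgfb1* was higher in CS than in CBM, where 10.3% of all genes were. Different cells were compared in both kinds of mice, since cluster 16 held 71.4% of the CBM and 5.47% of the CS cells, and 67.3% of the TBM and 1.44% of the TS cells, and within it *Cybb* and *Il4ra* had too few UMIs for a call. These *Cybb* levels were below free RNA, which itself was 58.0 CPM in CBM and 6.91 in CS, and the megakaryocyte-like CS over CBM ratio of *Cybb* turned from -2.48 to 0.86 without the 5% of cells with the highest doublet scores. The *Il4ra*, *Ptgs2*, and *Tgfb1* class levels compared in this paragraph did not stand above free RNA either.

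**Figure D4:**
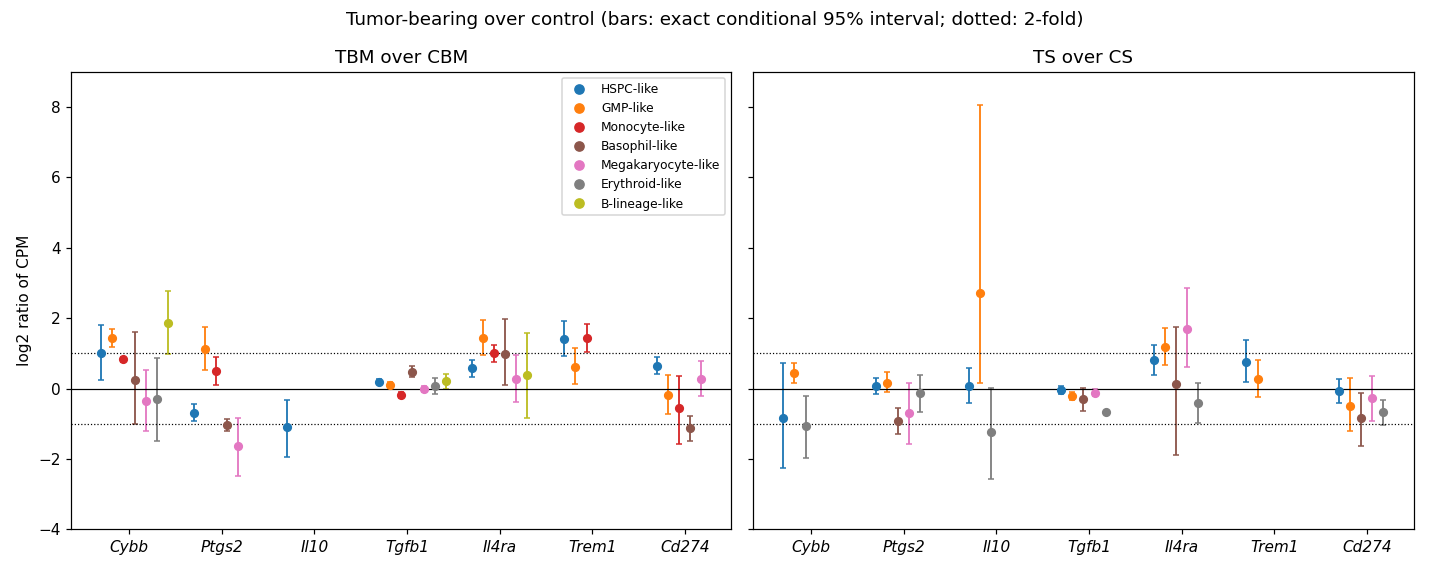
Log2 ratio of CPM, TBM over CBM on the left and TS over CS on the right, for 7 genes by cell class, with exact conditional 95% intervals as bars and dotted lines at 2-fold; only pairs with at least 20 UMIs are drawn, so *Trem1* has no basophil-like point. *Il4ra* lies above 0 in GMP-like and HSPC-like cells on both sides, and *Ptgs2* and *Cd274* lie below 0 in basophil-like cells, at -1.05 and -1.13 on the left.

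The genes most like each in level over the 27 pairs of class and library were found among 8329 genes by Pearson's r on log2(CPM + 1), given here as a description. *Cybb* was closest to *Clec5a* (r of 0.94), *Mcemp1*, and *C3*, and *Trem1* to *Csf3r* (0.89), the receptor gene for granulocyte colony-stimulating factor, *Lbp*, and *Cd33*. *Ptgs2* was closest to *Rnf130* (0.90), *Fosl2*, and *Cd200r1*, and *Cd274* to *Aff4* (0.94), *Slc18a2*, and *Ptpre*. *Il4ra* was closest to *Myo5a* (0.89) and *Tgfb1* to *Zhx1* (0.92). For *Il10* the nearest was *Arhgap32*, at 0.74 on 378 UMIs. The points share libraries, depth, and free RNA, and classes of a library are not independent.

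The genes lie on 8 chromosomes of mm10: *Arg1* at chr10:24915221-24927484, *Arg2* at chr12:79130777-79156301, *Nos2* at chr11:78920787-78960254, *Cybb* at chrX:9435252-9487771, *Ptgs2* at chr1:150100031-150108227, *Il10* at chr1:131019845-131024974, *Tgfb1* at chr7:25687002-25705077, *Il4ra* at chr7:125552120-125579474, *Trem1* at chr17:48232768-48246924, and *Cd274* at chr19:29367455-29388095. *Il4ra*, *Trem1*, and *Cd274* each have an annotated gene on the opposite strand, and 3' tag counts come from the end of the transcript and do not tell which part of a gene was read.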

How the data were processed

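4 libraries were analysed, 1 for each group. The authors made them with 10x Genomics 3' v3.1 chemistry and, per the submitters' notes, used Cell Ranger 4.0 and mm10, and the deposited values are raw UMI counts of each gene in every barcode, without normalization or cell calling. They hold 101811035 (CBM), 135207987 (TBM), 145301019 (CS), and 176094297 (TS) UMIs.

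Cells were clustered with scanpy 1.11.5 and leidenalg 0.10.2 (Python 3.11.15, scipy 1.17.1) on Pearson residuals of 3000 genes, without the 10 members and 68 pathway genes, with 50 components, 20 neighbors, and resolution 1.2. Clusters were named from marker lists by a rule set after seeing the clusters: at least 3 markers at least 3-fold up and in at least 10% of the cells, 2 of them among the 10 leading genes, none outnumbered there by another class, and a median depth of at least 0.2 of the cells' own libraries. No doublets were removed; Scrublet called 39, 50, 24, and 89 cells. Levels have exact Poisson, shares exact binomial, and ratios exact conditional 95% intervals. Before shares were compared, each cell was thinned to 2000 UMIs. Ratios needed at least 20 UMIs, and a count of 0 was bounded by 3 UMIs. Gene positions come from GENCODE M21 and promoters from RefSeq. Genes named are the members, those of 6 pathway lists, the 3 genes most like each member, and genes leading a cluster. One pathway gene is not reported here. The members and lists were chosen with earlier results of these data known. Scripts were tested on simulated data. Alternatives changed cell filters, doublets, clusters, free RNA, scale, thinning, and UMI minimum.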

Additional observations from a re-analysis of the deposited data

Results flagged for a closer look

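2 genes differed between libraries in opposite directions under the same contrast. *Cybb* in GMP-like cells was higher in spleen than in marrow of control mice, with a CS over CBM log2 ratio of 0.72, and lower in spleen than in marrow of tumor-bearing mice, with a TS over TBM log2 ratio of -0.27. *Tgfb1* in basophil-like cells was at a CS over CBM log2 ratio of 0.27 and a TS over TBM log2 ratio of -0.52. In each of the 4 ratios the counting interval leaves out 0, but with 1 library in each group the difference between the ratios was not tested. Libraries filled these classes differently. Cluster 30 held 26.4% of the TBM and 64.4% of the TS GMP-like cells, against 1.86% in CBM and 5.41% in CS, and *Cybb* there was at 90.9 CPM in TBM and 45.1 in TS. Within cluster 14, which all 4 libraries filled, *Cybb* was higher in spleen in both, with a log2 ratio of 0.73 in control mice and 0.20 in tumor-bearing mice. Of the basophil-like cells cluster 21 held 49.1% in TBM, 28% in TS, 9.28% in CBM, and 1.19% in CS, and within cluster 1 the *Tgfb1* log2 ratio of spleen over marrow was 0.20 (-0.01 to 0.41) in control mice and -0.36 (-0.87 to 0.11) in tumor-bearing mice, both with intervals that hold 0. Within cluster 21 it was -0.54 (-1.02 to -0.09) in tumor-bearing mice.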

How the results depend on the processing

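No paired analysis was possible because each group has 1 library. Of the 36 ratios past the fold, 265 values under the alternatives kept direction and call, 47 kept the direction and lost the call, and 2 reversed: *Cybb* in megakaryocyte-like cells (CS over CBM) became 0.86 without the 5% highest doublet scores, from -2.48, and *Cybb* in HSPC-like cells (TBM over CBM) became -0.38 with classes from each cell's own markers, from 1.00. These totals pool alternatives of unequal effect. With classes from each cell's own markers alone, 19 kept the call, 15 lost it, and 1 reversed. With 10% free RNA subtracted 26 kept the call and 2 lost it, and not all 36 ratios are in that count. The number of counts past the fold for TS over CS, 4 in the report, was 8 with classes from each cell's own markers, 1 with a minimum of 50 UMIs, and 7 by single named clusters of at least 20 cells in both libraries. For TS over TBM, 9 in the report, it was 5 with 10% free RNA subtracted and 5 with a minimum of 50 UMIs, and for TBM over CBM, 12 in the report, it was 19 by single named clusters. Shares above those of erythroid-like cells numbered 56 of 230 compared, and 86 without thinning, and no share over all genes was measured beside them. In basophil-like cells the TBM over CBM ratios of *Ptgs2* and *Cd274* were -0.77 and -0.89 at resolution 2.0 and -0.73 and -0.68 as means of each cell's own CPM. With classes from each cell's own markers, GMP-like *Ptgs2* (TBM over CBM) was 0.05 and HSPC-like *Ptgs2* and *Il10* (CS over CBM) were 0.03 and 0.77. Without the HSPC-like cluster 35, *Ptgs2* (CS over CBM) was 0.85. The cause was not tested. The alternatives by single clusters, for members and pathway genes, and without cluster 35 were chosen after seeing the data. Depth limits *Nos2*, *Arg1*, and *Arg2* outside TBM neutrophil-like cells, and every class under 50 cells.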

Other observations

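*Arg1* was also measured in cells that no class took in. In the unnamed cluster 33, led by *Ly6d*, *Trbc1*, and *Cd74*, 29 *Arg1* UMIs lay in 10 of 203 cells (7.13 CPM, 4.78 to 10.2), 20 of them in CS (12.5 CPM, 7.62 to 19.3, against 1.18 CPM in free RNA). A single cell held 10 of the 29 UMIs. In the unnamed cluster 12, led by *Mpo*, *Ctsg*, and *Ly6c2* and shallow in depth, 7 *Arg1* UMIs lay in 7 of 251 cells (8.32 CPM, 3.35 to 17.1), which did not stand above free RNA in any library.

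*Cd274* was at 79.6 CPM (53.7 to 114) in the 69 cells of the unnamed cluster 10, led by the platelet genes *Ppbp* and *Pf4*, on 30 UMIs in 14 cells. *Il4ra* was at 48.3 CPM in the 42 CS cells and 45.5 CPM in the 22 TS cells of the class of T, NK, or innate lymphoid-like cells. In the main dendritic-like cluster, with 324 CS and 29 TS cells, *Il4ra* was at 15.6 CPM in CS and 37.1 in TS and *Cd274* at 7.37 and 21.9 CPM.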
